A study of Mus musculus with 17 samples.

Results

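Cathepsins are the proteases of the lysosome, the acidic compartment in which cells break down proteins, and LAMP proteins line its membrane. The genes described here are 7 cathepsin genes (Ctsb, Ctsc, Ctsd, Ctsh, Ctsl, Ctss and Ctsz), the legumain gene Lgmn, and the membrane protein genes Lamp1 and Lamp2. They were taken as a list of known lysosomal protease and membrane genes, 10 of the 19938 genes that a probe set on the array measured alone, and each had exactly 1 such probe set. Their levels were followed in 2 kinds of myeloid cell at 3 stages of tumour growth. The values that bear on stage are comparisons of arrays within a kind of cell.

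The study addressed how myeloid-derived suppressor cells change as a tumour grows, and its 17 arrays (Affymetrix Mouse Gene 1.0 ST) came from sorted spleen cells of female BALB/c mice. All groups were CD11b+ cells, enriched on magnetic beads and then sorted by antibody staining from pooled spleens. The monocytic subset, labelled Mo-MDSCs, stained Ly-6C(high) but Ly-6G(low). The polymorphonuclear subset, labelled PMN-MDSCs, stained Ly-6G(high) but Ly-6C(low). The labels use these names for naive mice too. Naive mice had no tumour, and the other mice had received 100000 Her-2/CT26 cells, a BALB/c colon carcinoma line that carries Her-2, under the skin 3 or 6 weeks earlier. There were 3 Mo arrays at each stage, and 4, 2 and 2 PMN arrays from naive, 3-week and 6-week mice. The labels do not state the age of the mice or say that each replicate was a pool of its own. The p-values therefore rest on array-to-array spread that could be technical.

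Lysosomal proteases are made as inactive precursors that are cut and activated in the acidic lumen, which a proton pump, the V-ATPase, keeps acid. In monocytes and macrophages they digest what the cell has taken up, and some of them trim the invariant chain (Cd74) and antigens for MHC class II. In neutrophils and their precursors, related proteases and membrane proteins are also stored in granules.

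Levels are given as log2 intensity, so that a difference of 1 is a 2-fold change. Values of the subsets were treated as normalized apart, so Mo and PMN levels of a gene are set side by side without a test. Changes are limma estimates with their standard error (SE), and "rose" or "fell" is used only where the adjusted p was below 0.05 over all 19938 genes. A change in these sorted bulk samples cannot tell a different number of cells of a type from a different amount of RNA per cell. The labels carried their defining markers: the monocyte receptor gene Ccr2 lay between 12.06 and 12.45 in Mo arrays and between 6.07 and 6.78 in PMN arrays, while Ly6g, the neutrophil gene whose product was the sorting marker, lay between 10.21 and 12.97 in PMN arrays. Ly6g reached 8.95 in Mo 6-week replicate 2 but was no higher than 6.18 in naive and 3-week Mo arrays, and Mo 3-week replicate 1 lay among the naive arrays on the first principal component of the Mo arrays. Mo results are given without these arrays where they bear on the changes of the 10 genes or on list counts.

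In Mo cells, 3 of the 10 genes rose from naive to 6 weeks and none fell. Ctsl rose 2.65-fold, Ctsd 2.55-fold and Lamp2 1.38-fold. In PMN cells, 5 of the 10 rose over the same interval: Lamp2 2.37-fold, Ctsh 2.24-fold, Lamp1 1.90-fold, Ctsd 1.55-fold and Ctsb 1.48-fold. Ctsd and Lamp2 rose in both subsets, and Ctss, Ctsz, Ctsc and Lgmn passed the test in no comparison. Over all genes, 21.8% were called higher in Mo and 25.5% in PMN at 6 weeks, and bright genes were called higher more often than dim ones, as described further on.

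**Figure D1:**
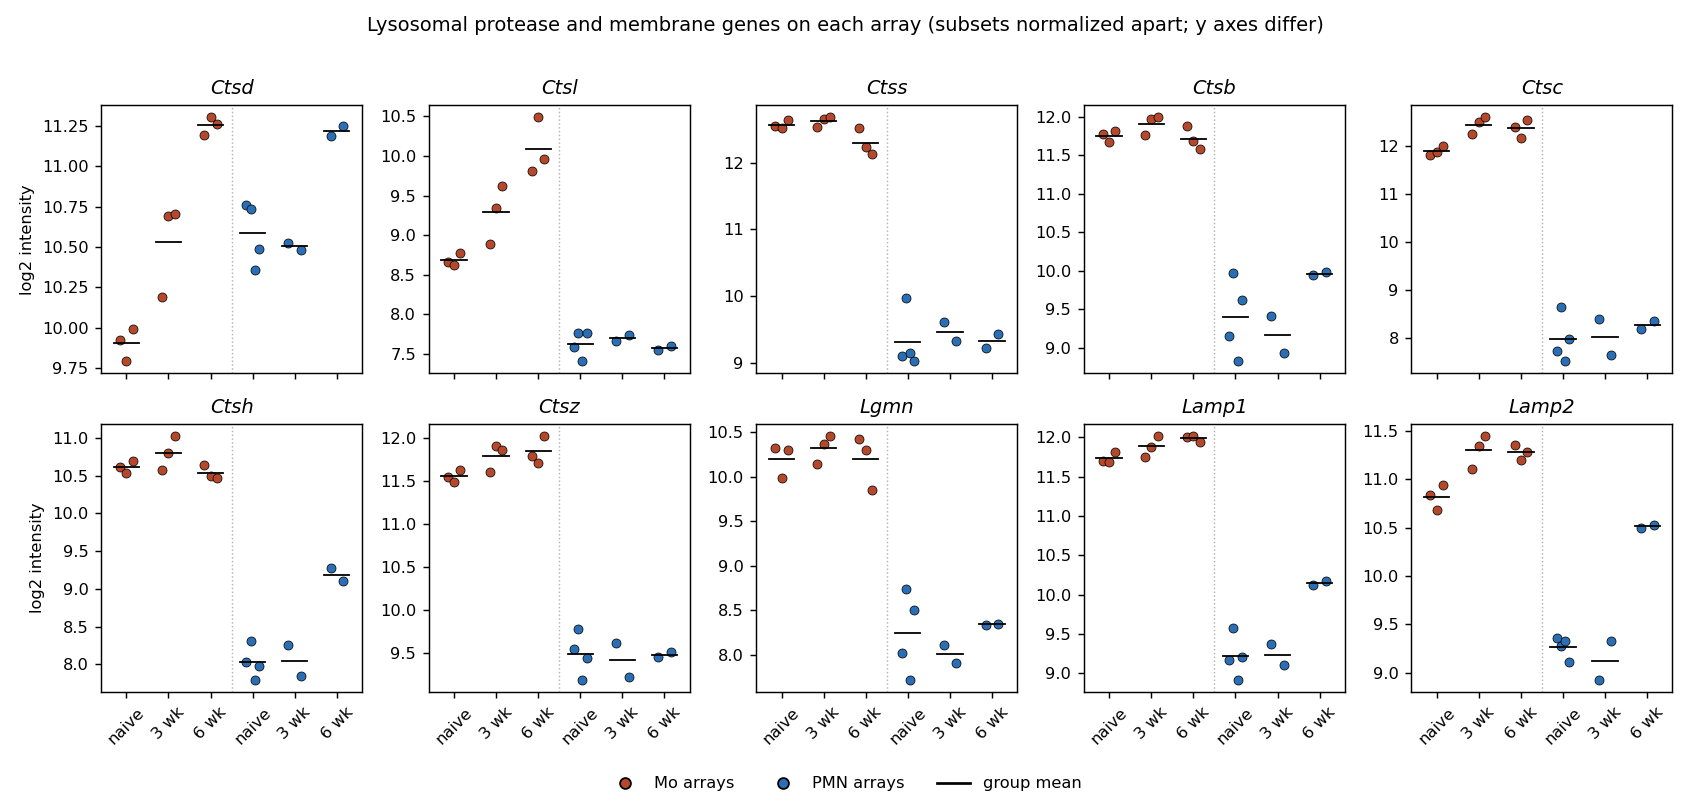
Log2 intensity of each of the 10 lysosomal genes on every array, by subset and stage, with a bar at each group mean. Ctsd and Ctsl climb from naive through 3 to 6 weeks in Mo arrays, while Ctsh, Lamp1 and Lamp2 step up in PMN arrays between 3 and 6 weeks. The y axes differ between genes, do not start at 0, and the subsets were treated as normalized apart.

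Among the promoter windows of these genes, the 6-base sequence CACGTG was common. CACGTG is the core of the CLEAR element, which the transcription factors TFEB, TFE3 and MITF bind in many lysosomal genes. RefSeq promoter windows of GRCm38.p6 run from 250 bases before to 50 bases after an annotated start, which can lie inside the gene. They were at hand for 8 of the 10 genes in 9 windows, with 2 windows for Lgmn and none listed for Ctsb and Ctsh. CACGTG reads the same on both strands, and it was found in 4 of the 9 windows, those of Ctsd, Ctsl, Lamp1 and 1 of the Lgmn windows, against 7.15% of 32851 windows of the same length over all genes. The Lamp1 window held 4 copies, which 8 of the 32851 windows (0.0244%) matched, and the Ctsd window held 2, a number that 0.594% of windows reached. The stretches that hold the copies are printed below 5′ to 3′ on the strand of the gene, with CACGTG in capitals. They are shown because Ctsd is the gene that rose in every comparison with a 6-week group and Lamp1 is the one with the most copies. The Ctsd stretch is chr7:142387898-142388077 on the minus strand, the Lamp1 stretch chr8:13159078-13159160 on the plus strand, the Ctsl stretch chr13:64370739-64370768 on the minus strand and the Lgmn stretch chr12:102439124-102439153 on the minus strand. The last 2 stretches lie within the bounds of the annotated gene, as do the whole windows that hold them. Those 2 windows thus belong to starts inside the gene. The Lgmn window at the outer end of the gene, chr12:102439679-102439978, held no copy.
Ctsd: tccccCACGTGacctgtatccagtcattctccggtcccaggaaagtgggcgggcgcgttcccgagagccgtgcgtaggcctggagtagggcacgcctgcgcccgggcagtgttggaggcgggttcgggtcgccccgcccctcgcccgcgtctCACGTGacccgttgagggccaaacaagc
Lamp1: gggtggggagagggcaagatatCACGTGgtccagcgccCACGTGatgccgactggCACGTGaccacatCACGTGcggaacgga
Ctsl: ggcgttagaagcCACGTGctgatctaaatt
Lgmn: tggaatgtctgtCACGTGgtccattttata

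The Ctsd copies began 245 and 98 bases before the start, and the 4 Lamp1 copies lay between 61 and 15 bases before it. The longer form TCACGTGA, which contains CACGTG, was in 1 of the 9 windows and in 0.974% of all. Of the 4 genes with a copy, Ctsd, Ctsl and Lamp1 rose in at least 1 comparison, and Lgmn passed in none. The copies of Ctsl and Lgmn lay in windows at starts inside the gene. Of the genes whose windows held no copy, Lamp2 rose in both subsets, and Ctsc, Ctss and Ctsz passed in no comparison of the main fit. Whether the letters bear on these changes was not tested. A match is a description of the sequence and shows no binding in these cells.

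Ctsd encodes cathepsin D, the main aspartic protease of the lysosome (probe set 10569319; GRCm38.p6, chromosome 7, 142375910 to 142387827). In Mo arrays its log2 level was 9.93, 9.79 and 9.99 in naive mice, 10.19, 10.69 and 10.71 at 3 weeks, and 11.20, 11.30 and 11.26 at 6 weeks. The 3 groups do not overlap, and the lowest 3-week array is replicate 1. Ctsd rose by 1.35 ± 0.13 (SE, 3 arrays against 3) from naive to 6 weeks, with an adjusted p of 1.73e-06, and by 0.72 ± 0.13 from 3 to 6 weeks, with an adjusted p of 0.00136. The second rise was 0.55 without 3-week replicate 1 (adjusted p 0.00381) and 0.70 without 6-week replicate 2 (adjusted p 0.0094). In PMN arrays the level was 10.76, 10.73, 10.36 and 10.49 in naive mice, 10.52 and 10.48 at 3 weeks, and 11.19 and 11.25 at 6 weeks. Here the 3-week values lie inside the naive range and both 6-week values lie above every earlier array. Ctsd rose by 0.63 ± 0.14 from naive to 6 weeks in PMN (2 arrays against 4, adjusted p 0.00109) and by 0.71 ± 0.16 from 3 to 6 weeks (2 against 2, adjusted p 0.00178). The naive-to-6-week rise was larger in Mo than in PMN by 0.72 ± 0.19 (adjusted p 0.0145), while the 3-to-6-week rises differed by 0.01 ± 0.21, with a 95% interval from -0.43 to 0.45.

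Ctsl encodes cathepsin L, a cysteine endopeptidase with broad activity (probe set 10410124; chromosome 13, 64361890 to 64370772). Its Mo levels were 8.66, 8.62 and 8.77 in naive mice, 8.89, 9.35 and 9.63 at 3 weeks, and 9.81, 10.49 and 9.96 at 6 weeks. As for Ctsd, the 3 groups do not overlap, and the highest value of all is that of 6-week replicate 2, the array with the high Ly6g. Ctsl rose by 1.40 ± 0.17 from naive to 6 weeks (adjusted p 2.01e-05), and by 1.20 without that replicate (adjusted p 0.000131). From 3 to 6 weeks it rose by 0.80 ± 0.17 (adjusted p 0.00579), by 0.60 without that replicate (adjusted p 0.0441) and by 0.60 without 3-week replicate 1 (adjusted p 0.0265), and the same 0.80 missed the threshold where Mo arrays were fitted alone (adjusted p 0.0596). In PMN arrays Ctsl stayed between 7.40 and 7.76 on all 8 arrays, with a change of -0.05 ± 0.18 at 6 weeks and a 95% interval from -0.44 to 0.33. The difference between the subsets in the naive-to-6-week change was 1.46 ± 0.25 (adjusted p 0.000709), the largest in size among the 10 genes, and that in the 3-to-6-week change was 0.93 ± 0.27 (adjusted p 0.0181). The second of these missed the threshold with median centring and without PMN 3-week replicate 2 or PMN 6-week replicate 1.

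Ctss encodes cathepsin S, a cysteine endopeptidase that stays active at neutral pH and cuts the invariant chain in antigen-presenting cells (probe set 10494271; chromosome 3, 95526786 to 95556405). Its Mo levels were 12.54, 12.52 and 12.63 in naive mice, 12.53, 12.65 and 12.67 at 3 weeks, and 12.52, 12.23 and 12.12 at 6 weeks. Every 6-week array lay below every 3-week array, but the top 6-week value equals the lowest naive one to 2 decimals. The change from naive to 6 weeks was -0.27 ± 0.19 (adjusted p 0.227). PMN levels ran from 9.03 to 9.97, and the change at 6 weeks was 0.01 ± 0.20, with a 95% interval from -0.40 to 0.43.

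Ctsb encodes cathepsin B, a cysteine protease that cuts both inside proteins and at their carboxyl end (probe set 10415844; chromosome 14, 63122462 to 63145923). In PMN arrays its level was 9.16, 9.98, 8.83 and 9.63 in naive mice, 9.41 and 8.93 at 3 weeks, and 9.94 and 9.99 at 6 weeks. Both 6-week values lie at the top, but naive replicate 2 reaches them, and the naive arrays spread over more than a log2 unit. Ctsb rose by 0.57 ± 0.22 from naive to 6 weeks (adjusted p 0.0327) and by 0.79 ± 0.25 from 3 to 6 weeks (adjusted p 0.0154). The first call held in 8 of 17 alternatives and the second in 10 of 15. In Mo arrays Ctsb lay between 11.58 and 11.99, and its change at 6 weeks was -0.04 ± 0.21 (95% interval -0.48 to 0.40). The 3-to-6-week change differed by -0.98 ± 0.33, Mo minus PMN (adjusted p 0.0342), a call that held in 10 of 20 alternatives.

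3 of the genes encode enzymes that clip residues from the ends of proteins. Ctsc encodes cathepsin C, or dipeptidyl peptidase I, which activates the serine proteases of azurophil granules (probe set 10554789; chromosome 7, 88278024 to 88315861). Its Mo levels were 11.83, 11.88 and 12.02 in naive mice, 12.25, 12.51 and 12.60 at 3 weeks, and 12.40, 12.18 and 12.55 at 6 weeks. All 6 arrays from tumour-bearing mice lie above all 3 naive arrays, yet neither change passed: 0.55 ± 0.23 at 3 weeks (adjusted p 0.115) and 0.47 ± 0.23 at 6 weeks (adjusted p 0.0936). Of 8 listed azurophil granule genes, 5 rose in Mo over the same interval, where 21.8% of all genes were called higher, and the other 3 (Prss57, Cpa3 and Srgn) had changes of -0.05, -0.20 and 0.13 that did not pass. The rises were 4.53 ± 0.27 for Mpo, 4.24 ± 0.26 for Ctsg and 4.18 ± 0.26 for Elane, and 4.48, 4.20 and 4.10 without 6-week replicate 2, where 5 of 8 passed. Ctsg and Elane encode cathepsin G and neutrophil elastase, serine proteases that cathepsin C is known to activate. PMN levels of Ctsc ran from 7.50 to 8.65, with a change of 0.30 ± 0.24 at 6 weeks (adjusted p 0.275).

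Ctsh encodes cathepsin H, an aminopeptidase (probe set 10587733; chromosome 9, 90054267 to 90076095). In PMN arrays it lay at 8.03, 8.31, 7.79 and 7.97 in naive mice, at 8.25 and 7.84 at 3 weeks, and at 9.28 and 9.10 at 6 weeks. The 6-week values stand clear of all 6 earlier arrays, whose naive and 3-week values overlap. Ctsh rose by 1.16 ± 0.15 from naive to 6 weeks (adjusted p 7.44e-06) and by 1.14 ± 0.17 from 3 to 6 weeks (adjusted p 5.78e-05), and both calls held in every alternative run. In Mo arrays it lay at 10.62, 10.54 and 10.70, then 10.57, 10.81 and 11.03, then 10.65, 10.49 and 10.47. The Mo groups overlap, and the change at 6 weeks was -0.08 ± 0.14 (95% interval -0.38 to 0.21). Mo minus PMN, the change from naive to 6 weeks differed by -1.24 ± 0.20 (adjusted p 0.000457) and that from 3 to 6 weeks by -1.40 ± 0.22 (adjusted p 0.000211).

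Ctsz encodes cathepsin Z, also called X, a carboxypeptidase (probe set 10490212; chromosome 2, 174427494 to 174439039). Mo levels were 11.55, 11.49 and 11.63 in naive mice, 11.61, 11.91 and 11.86 at 3 weeks, and 11.79, 11.72 and 12.02 at 6 weeks. The 6-week arrays lie above the naive ones, but the change of 0.29 ± 0.14 did not pass (adjusted p 0.0946). In PMN arrays Ctsz ran from 9.19 to 9.78, with a change of -0.01 ± 0.15 at 6 weeks (95% interval -0.32 to 0.30). Lgmn encodes legumain, which cuts after asparagine and processes the precursors of several cathepsins (probe set 10402268; chromosome 12, 102394082 to 102439728). It lay between 9.86 and 10.46 in Mo arrays and between 7.72 and 8.74 in PMN arrays. Its 6-week changes were -0.01 ± 0.21 in Mo (95% interval -0.44 to 0.43) and 0.10 ± 0.22 in PMN (95% interval -0.37 to 0.56), and the stages overlap in both subsets from naive to 6 weeks.

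Lamp1 and Lamp2 encode the most abundant glycoproteins of the lysosomal membrane, and a splice form of Lamp2 acts as the receptor of chaperone-mediated autophagy. The Lamp2 probe set (10604187; chromosome X, 38399647 to 38456460) gave PMN levels of 9.36, 9.27, 9.33 and 9.11 in naive mice, 8.93 and 9.33 at 3 weeks, and 10.50 and 10.53 at 6 weeks. The gap between the 6-week arrays and all others is wider than the spread among those others. Lamp2 rose by 1.24 ± 0.12 from naive to 6 weeks (adjusted p 5.16e-07) and by 1.39 ± 0.14 from 3 to 6 weeks (adjusted p 1.36e-06). In Mo arrays it lay at 10.84, 10.68 and 10.94 in naive mice, 11.11, 11.34 and 11.45 at 3 weeks, and 11.36, 11.20 and 11.28 at 6 weeks. The arrays of tumour-bearing mice lie above the naive ones, and the 6-week values lie inside the 3-week range. Lamp2 rose by 0.46 ± 0.12 from naive to 6 weeks in Mo (adjusted p 0.00576), and its change from 3 to 6 weeks was -0.02 ± 0.12 (95% interval -0.26 to 0.23). With cyclic loess normalization within each subset, an alternative chosen after seeing the data, the Mo change at 6 weeks was 0.17 and did not pass (adjusted p 0.217).

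Lamp1 (probe set 10570344; chromosome 8, 13159161 to 13175338) lay in PMN arrays at 9.17, 9.57, 8.92 and 9.21 in naive mice, at 9.38 and 9.10 at 3 weeks, and at 10.12 and 10.17 at 6 weeks. As for Lamp2, both 6-week arrays lie above every other PMN array. Lamp1 rose by 0.93 ± 0.14 from naive to 6 weeks (adjusted p 3.49e-05) and by 0.91 ± 0.16 from 3 to 6 weeks (adjusted p 0.000231). Its Mo levels were 11.70, 11.69 and 11.82, then 11.75, 11.88 and 12.02, then 12.01, 12.01 and 11.95. The 6-week Mo arrays lie above the naive ones, with a change of 0.25 ± 0.13 that did not pass (adjusted p 0.112). Both membrane genes changed less in Mo than in PMN from naive to 6 weeks, with differences of -0.67 ± 0.19 for Lamp1 (adjusted p 0.0193) and -0.78 ± 0.17 for Lamp2 (adjusted p 0.00395). From 3 to 6 weeks the difference was -0.81 ± 0.20 for Lamp1 (adjusted p 0.00781) and -1.40 ± 0.18 for Lamp2 (adjusted p 4.44e-05).

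**Figure D2:**
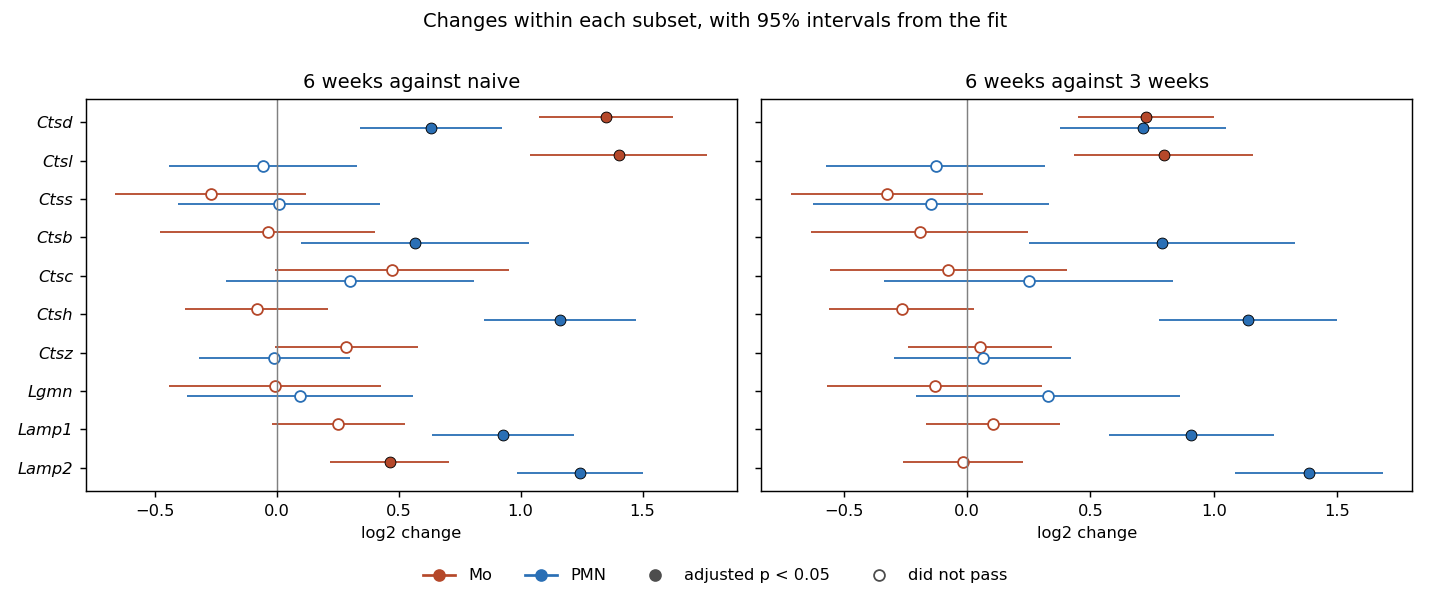
Estimated log2 change of each lysosomal gene from naive to 6 weeks (left) and from 3 to 6 weeks (right), in Mo (red) and PMN (blue), with the 95% interval of the fit; filled points passed at an adjusted p below 0.05. Ctsl stands at 1.40 in Mo and -0.05 in PMN on the left, while Ctsh stands at -0.08 and 1.16.

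At 3 weeks, in Mo, 3 of the 10 genes rose against naive, where 5.2% of all genes were called higher: Ctsd by 0.63 ± 0.13 (adjusted p 0.0216), Ctsl by 0.61 ± 0.17 (adjusted p 0.048) and Lamp2 by 0.48 ± 0.12 (adjusted p 0.033). These are the same 3 genes as at 6 weeks, but both comparisons share the Mo naive arrays, so their calls are not independent. All 3 calls were lost without Mo naive replicate 1 or 2 and without Mo 3-week replicate 2 or 3, and in 4 other alternatives. Replicate 1 of the 3-week arrays was the lowest of its group for all 10 genes, and without it Ctsd rose by 0.80, Ctsl by 0.80, Lamp2 by 0.58 and Ctsc by 0.65 (adjusted p from 0.000348 to 0.0454). In PMN no gene of the 10 passed at 3 weeks, with changes from -0.23 to 0.16, and limma called 0 of all 19938 genes there (0%), with 374 at an unadjusted p below 0.05. None of the 10 was among those 374. The difference between the subsets at 3 weeks passed for none of the 10 genes, where 0.00502% of all genes were called higher, with the largest estimate for Ctsd at 0.71 ± 0.19 (adjusted p 0.251). Without Mo 3-week replicate 1 it passed for 3 of them, Ctsd at 0.88 (adjusted p 0.00744), Ctsl at 0.73 (adjusted p 0.0372) and Lamp2. The 0.00502% belongs to the fit with that array, and the share without it is not given here. Calls against naive in Mo also grew beyond the 10 genes without that array, from 8 to 20 of 27 lysosomal hydrolases.

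From 3 to 6 weeks, 2 of the 10 genes rose in Mo, where 4.38% of all genes were called higher, and 5 rose in PMN, where 23.7% were. Among genes as bright as the 10, 6.05% were called higher in Mo and 63.8% in PMN. The median PMN change was 0.62 for those bright genes and 0.52 for the 10. The PMN genes were the same 5 as from naive to 6 weeks. Of the differences between the subsets from naive to 6 weeks, 2 of 10 were called higher in Mo (Ctsd and Ctsl, against 6.47% of all genes) and 3 lower (Ctsh, Lamp1 and Lamp2, against 11%). Among genes as bright in Mo as the 10, those shares were 4.19% higher and 44.9% lower, with a median difference of -0.49. From 3 to 6 weeks, 1 was called higher (Ctsl, against 11.9%) and 4 lower (Ctsb, Ctsh, Lamp1 and Lamp2, against 17.3%), beside 2.38% and 64.1% of equally bright genes. The comparisons of 6 weeks with naive and with 3 weeks share the 6-week arrays, so their calls are not independent. In Mo at 6 weeks, 6 of the 10 genes lay above naive with no overlap between the arrays, where 55.1% of all genes had no overlap in either direction, and in PMN 4 of the 10 did, against 80.3%.

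The change at 6 weeks depended on how bright a gene was, in both subsets. In Mo arrays the median change was -0.24 for the 5319 genes with a mean log2 level of 6 to 7 and 0.32 for the 1583 genes at 9 to 10. In PMN arrays it was -0.31 for the 6682 genes at 6 to 7 and 0.76 for the 745 genes at 9 to 10. All 10 lysosomal genes are bright, with mean levels between 9.35 and 12.49 in Mo and between 7.63 and 10.72 in PMN. Among all genes within those bounds, 46.3% of 1768 were called higher in Mo at 6 weeks and 66.7% of 4054 in PMN, so 3 of 10 and 5 of 10 are no larger shares than those of equally bright genes. At 3 weeks in Mo, 15.8% of equally bright genes were called higher. The median change of the 10 genes was 0.27 in Mo and 0.43 in PMN, beside 0.28 and 0.62 for equally bright genes and -0.09 and -0.18 for all genes. What set this dependence on brightness was not tested. Over 1194 olfactory and vomeronasal receptor genes the median change at 6 weeks was -0.33 in Mo and -0.36 in PMN. The falls given below for Atp6v0d2, Dnase2a, Idua, Mitf and Cst6 were no larger than these medians.

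Cyclic loess normalization, which removes such a trend within each subset, kept the rises of Ctsd at 1.04 and Ctsl at 1.07 in Mo, and those of Ctsh at 0.87 and Lamp2 at 0.86 in PMN. It reduced the PMN rises of Lamp1 to 0.54 (adjusted p 0.000984) and of Ctsd to 0.30 (adjusted p 0.0255), and that of Ctsb to 0.18, which did not pass (adjusted p 0.507). On that scale Ctss and Ctsh passed as lower in Mo at -0.50 and -0.39 (adjusted p 0.0266 and 0.0205) and Ctsz in PMN at -0.40 (adjusted p 0.0137), none of which were called on the deposited scale. Median centring moved changes the other way, adding 0.19 to every 6-week change against naive in each subset, and then 5 genes were called in Mo, with Lamp1 at 0.44 and Ctsz at 0.47 added. The differences between the subsets moved less: with cyclic loess they were 0.74 for Ctsd, 1.19 for Ctsl, -1.26 for Ctsh, -0.55 for Lamp1 and -0.69 for Lamp2, and all 5 passed.

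**Figure D3:**
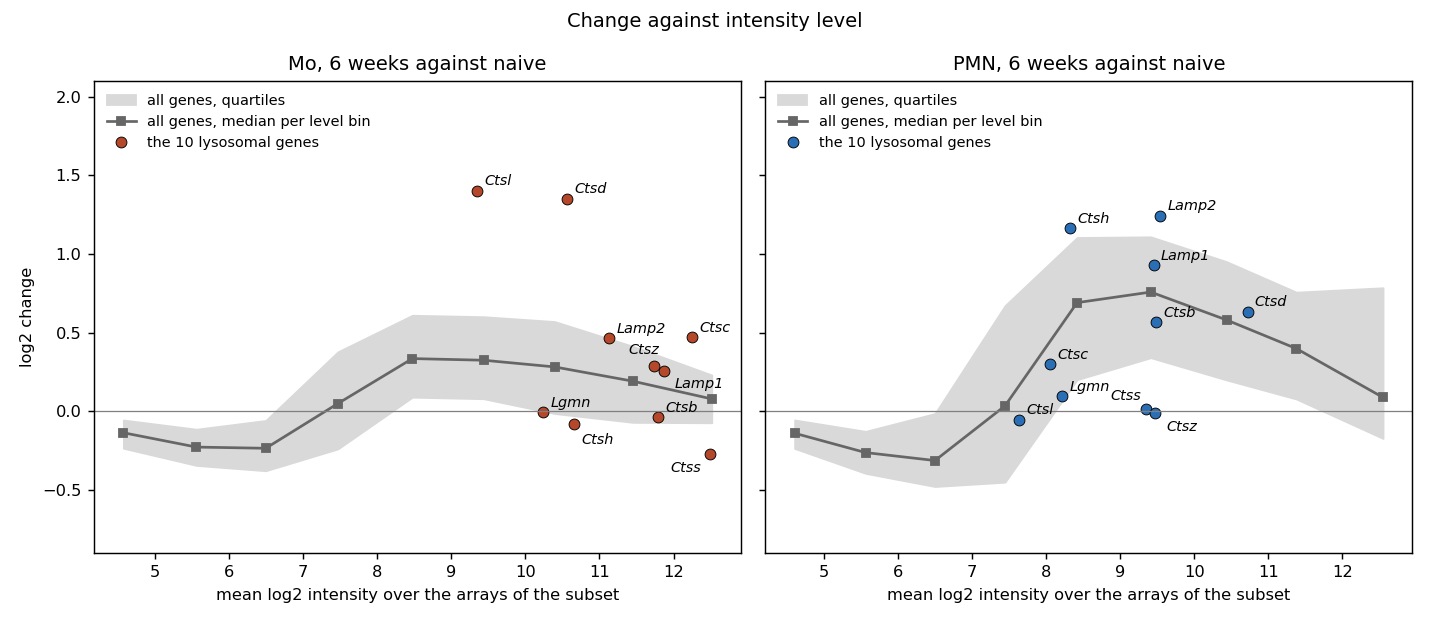
Log2 change from naive to 6 weeks against mean log2 level in Mo (left) and PMN (right). The grey line joins the median change of all genes in bins of level, the band spans their quartiles, and the points are the 10 lysosomal genes. In Mo, Ctsl and Ctsd lie farthest above the band and Ctsc also lies above it, while Ctss and Ctsh lie below it. In PMN, Ctsh and Lamp2 lie above the band, and Ctss and Ctsz below it.

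Markers of other cells moved at 6 weeks too. Over all genes 21.8% were called higher and 24.4% lower in Mo, and 25.5% and 40% in PMN. In Mo as in PMN, 8 of 11 neutrophil genes rose and 1 fell, and their summed intensity in Mo was 2378 to 3132 in naive arrays, 3470 to 4390 at 3 weeks and 10673 to 23305 at 6 weeks, with the top value in replicate 2. Without that array Ctsd rose by 1.33, Ctsl by 1.20 and Lamp2 by 0.50 in Mo, and all 3 passed. Without that array 6 of the 11 neutrophil genes were called higher. The neutrophil sum was 34616 to 77241 over the PMN arrays. The summed intensity of 6 erythroid genes was 857 to 1407 in naive Mo arrays and 1017 to 4968 at 6 weeks, also highest in replicate 2, with 1 gene called higher. Of 11 T and NK cell genes 9 fell in Mo, with sums of 2028 to 2771 in naive and 911 to 1346 at 6 weeks, and 6 of 8 B cell genes fell there, or 1 of 8 without replicate 2. Of 11 dendritic cell genes 8 fell and 1 rose in Mo, and 7 fell and 1 rose in PMN. Their median change was -0.40 in Mo, beside -0.09 for all genes. Their mean log2 level in Mo arrays was 6.66 to 7.36. The median change there was -0.24 for all genes at 6 to 7 and 0.05 for those at 7 to 8. In PMN arrays their mean log2 level was 6.25 to 6.77. The median change of these dendritic cell genes in PMN was -0.39, beside -0.31 for all genes at 6 to 7. Of 15 macrophage genes 6 fell and 1 rose in Mo, or 3 and 0 without replicate 2. In PMN all 8 B cell genes and 7 of 11 T and NK cell genes fell, and 1 of those 11 rose. All 8 proliferation genes rose in Mo and in PMN. In PMN, macrophage marker sums were 4354 to 7756 in naive arrays and 5950 to 6101 at 6 weeks, with 1 of 15 genes higher and 2 lower. PMN naive replicate 2 had the highest macrophage sum and the highest level of 7 of the 10 lysosomal genes within its group. Without it the PMN changes at 6 weeks were 0.76 for Ctsb, 0.53 for Ctsc (adjusted p 0.0228), 1.05 for Lamp1 and 0.23 for Ctss (adjusted p 0.114), and 6 genes passed. Mo minus PMN, the naive-to-6-week change then differed by -0.50 for Ctss (adjusted p 0.0482) and -0.80 for Ctsb (adjusted p 0.0345), neither of which passed with that array (-0.28 and -0.60). Beyond the values without these arrays, the part of other cells and of proliferation in the results was not tested.

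Levels across the 9 Mo arrays set the genes that varied most beside other genes, as a description over arrays that share their stages. Ctsl was most like Acta2 (Pearson's r 0.99), Plod1 (0.99) and Ncoa4 (0.98), which changed by 0.74, 0.71 and 1.04 in Mo at 6 weeks. Ctsd was most like Mmp8 (0.99), Emb (0.99) and Pgd (0.99), of which the neutrophil collagenase gene Mmp8 changed by 2.78. Ctsc was most like Ncbp2 (0.99), Lxn (0.98) and Capza1 (0.98). Ctsd and Ctsl had an r of 0.97 with each other over the Mo arrays and of -0.13 over the 8 PMN arrays.

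Other genes of the lysosome were counted by class. The V-ATPase, which acidifies the lumen, was counted over 15 measured subunit genes. From naive to 6 weeks in PMN, 14 of them rose and 1 fell, with a median change of 1.29. Over all genes 25.5% were called higher there, with a median of -0.18, and over genes as bright as the 10 lysosomal genes 66.7% were, with a median of 0.62. Atp6v1a rose by 1.92 ± 0.16, Atp6v1d by 1.81 ± 0.18 and Atp6v1e1 by 1.77 ± 0.18. The gene that fell was Atp6v0d2, which fell by 0.29 ± 0.10, less than the median fall of the receptor genes. Atp6v1d lay between 7.23 and 7.76 in naive PMN arrays and at 9.24 and 9.28 at 6 weeks. In Mo, 12 of 15 rose and none fell, against 21.8% of all genes called higher and 46.3% of the bright ones, and 8 of 15 rose without 6-week replicate 2. The Mo median was 0.51, led by Atp6v1d at 1.22 ± 0.17, Atp6ap2 at 1.16 ± 0.20 and Atp6v1c1 at 1.01 ± 0.16. Counted in either direction, 7 to 14 subunits passed in Mo and 13 to 15 in PMN over the alternatives, and the 7 came with cyclic loess. The change was smaller in Mo than in PMN for 8 of the 15 subunits and larger for none. It was called smaller for 11% of all genes and 44.9% of those as bright in Mo as the 10. At 3 weeks 7 of 15 rose in Mo, a count that went from 0 to 15 over the alternatives. There 5.2% of all genes and 15.8% of those as bright as the 10 were called higher. It was 14 without Mo 3-week replicate 1 and 0 without Mo naive replicate 1 or 2 or without Mo 3-week replicate 2 or 3, and 0 of 15 passed in PMN.

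Of 27 measured lysosomal hydrolases, which digest sugars, lipids and nucleic acids, 14 rose and 1 fell in Mo at 6 weeks, and 12 rose and 2 fell in PMN. Over all genes 21.8% and 25.5% were called higher, and over genes as bright as the 10 lysosomal genes 46.3% and 66.7%. Without Mo 6-week replicate 2, 10 rose and 1 fell in Mo. The Mo rises were led by Gla (1.38 ± 0.11), which encodes alpha-galactosidase A, Galns (1.03 ± 0.17) and Galc (0.95 ± 0.15), and Ids fell by 0.51 ± 0.13. The PMN rises were led by Galc (1.98 ± 0.16), which encodes galactosylceramidase, Arsb (1.93 ± 0.19), which encodes arylsulfatase B, and Galns (1.49 ± 0.18), and Dnase2a and Idua each fell by 0.33. Gla and Arsb differed between the subsets in opposite directions, with Mo minus PMN changes of 1.46 ± 0.17 (adjusted p 1.95e-05) and -2.23 ± 0.27 (adjusted p 3.12e-05).

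Among 10 other lysosomal genes, proteases counted together with the thiol reductase gene Ifi30, 3 rose and 3 fell in Mo and 3 rose and 6 fell in PMN. Over all genes 21.8% were called higher and 24.4% lower in Mo, and 25.5% and 40% in PMN. Napsa, an aspartic protease like Ctsd, rose by 0.76 ± 0.14 in Mo and 1.17 ± 0.15 in PMN, and the aspartic protease gene Ctse rose in PMN by 1.31 ± 0.15. Ifi30, which encodes the thiol reductase GILT that opens disulfide bonds for antigen processing, rose by 0.45 ± 0.16 in Mo and fell by 0.78 ± 0.17 in PMN, a difference of 1.22 ± 0.24 (adjusted p 0.00181). Ctsw fell by 0.76 ± 0.13 in Mo and fell by 0.67 ± 0.14 in PMN. The Mo rise of Ifi30 did not pass without 6-week replicate 2 (adjusted p 0.0565). Ctsw is known from T and NK cells, of whose 11 marker genes 9 fell in Mo and 7 in PMN, and their part in the Ctsw result was not tested.

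Of 14 other membrane proteins, 4 rose and 1 fell in Mo, or 2 and 0 without 6-week replicate 2, and 7 rose in PMN. Among genes as bright as the 10 lysosomal genes, 46.3% were called higher in Mo and 66.7% in PMN. Over all genes 21.8% were called higher and 24.4% lower in Mo, and 25.5% and 40% in PMN. Clcn7, a chloride transporter of the lysosome, rose by 0.70 ± 0.14 in Mo, and its partner Ostm1 rose by 1.58 ± 0.15 in PMN, followed there by Cd63 (1.10 ± 0.21) and Cln3 (0.91 ± 0.14). Of 13 genes for enzyme sorting and lysosome biogenesis, 4 rose in Mo, and 7 rose and 2 fell in PMN. The same shares of all genes and of bright genes stand beside these counts. Sort1, which encodes the sorting receptor sortilin, rose by 0.77 ± 0.11 in Mo and 1.55 ± 0.12 in PMN, and Igf2r, the mannose 6-phosphate receptor that carries enzymes to the lysosome, rose by 1.11 ± 0.11 in PMN. Of the factors that bind CACGTG, named here after their values were seen, Tfe3 rose in PMN by 0.83 ± 0.12 and Mitf fell by 0.31 ± 0.10, while Tfeb passed in neither subset (0.32 ± 0.14 in Mo, adjusted p 0.0658; 0.24 ± 0.15 in PMN, adjusted p 0.164). Of 4 activators and lipid carriers, Npc2 and Gm2a each fell by 0.35 in Mo, where Gm2a did not pass without 6-week replicate 2 (adjusted p 0.0719), and Npc2 rose in PMN by 0.26 ± 0.09.

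Cystatins inhibit the cysteine cathepsins, and 4 of their genes were measured. In Mo, Cst7, which encodes cystatin F, rose by 1.53 ± 0.23 from naive to 6 weeks and Cstb, which encodes stefin B, by 0.71 ± 0.16, while Cst6 fell by 0.28 ± 0.10. Without 6-week replicate 2 the changes were 1.42 for Cst7, 0.69 for Cstb and -0.26 for Cst6, of which that of Cst6 did not pass (adjusted p 0.104). In PMN, Cst3, which encodes cystatin C, rose by 0.72 ± 0.25 and Cst6 fell by 0.33 ± 0.11. Cystatin F is known to act on cathepsin C, whose gene did not pass in Mo, and cathepsin L, whose gene rose there. The genes of MHC class II, the pathway that cathepsins S and L serve, went down at 6 weeks: 8 of 9 fell in Mo, with a median of -1.80, and 7 of 9 in PMN, with a median of -0.72, where 24.4% and 40% of all genes were called lower. Without Mo 6-week replicate 2, 6 of 9 fell in Mo, with a median of -1.61, and without PMN naive replicate 2, 6 of 9 fell in PMN, with a median of -0.61. Genes of cells that present antigen fell alongside: 8 of 11 dendritic cell and 6 of 8 B cell genes in Mo, and 7 of 11 and 8 of 8 in PMN. These counts were 7 of 11 and 1 of 8 in Mo without 6-week replicate 2. In PMN they were 7 of 11 and 7 of 8 without naive replicate 2. The part of such cells in the MHC class II values was not tested. In Mo, H2-Aa fell by 3.73 ± 0.38 and the invariant chain gene Cd74 fell by 3.34 ± 0.34, beside a Ctss change of -0.27 ± 0.19 and a Ctsl rise of 1.40 ± 0.17.

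**Figure D4:**
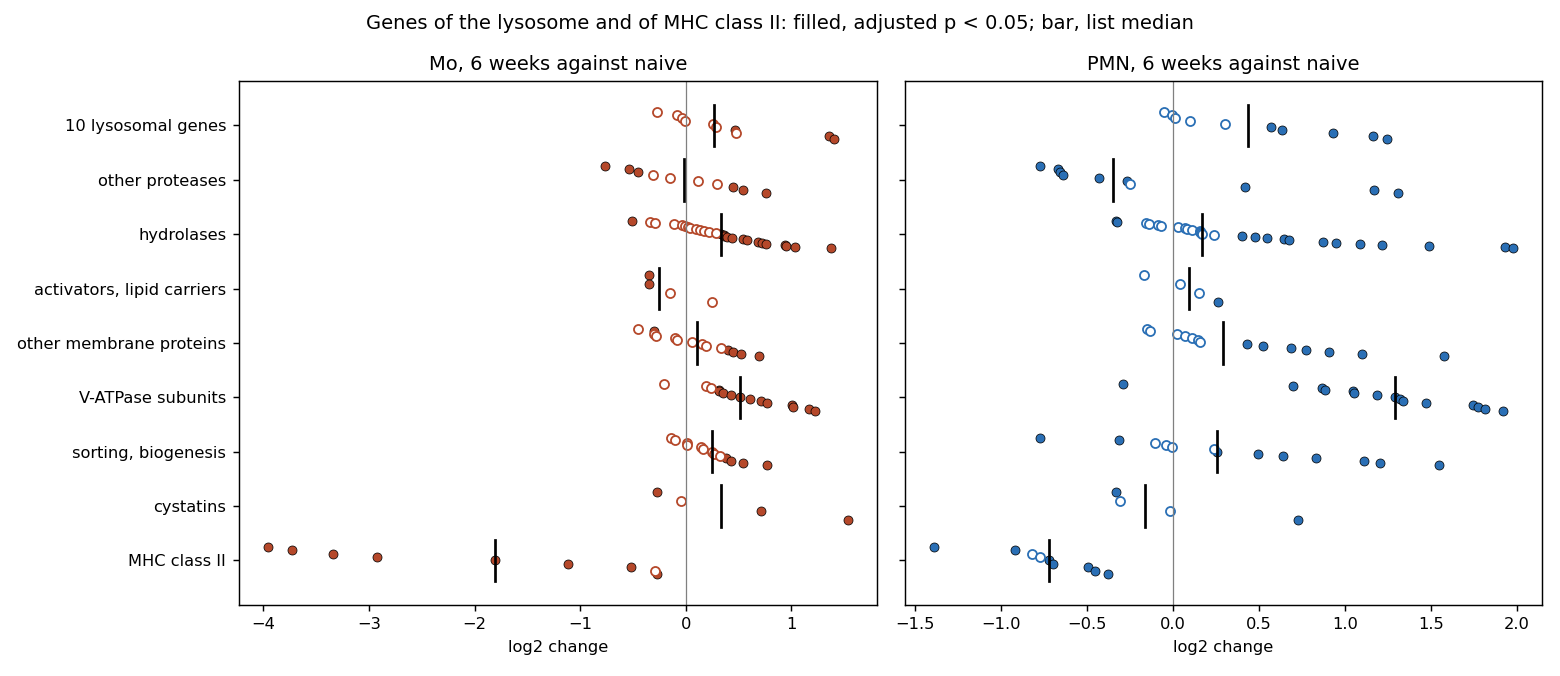
Log2 change from naive to 6 weeks of each measured gene in 9 lists, in Mo (left) and PMN (right); filled points passed at an adjusted p below 0.05 and the bar is the list median. The V-ATPase list has its median at 0.51 in Mo and 1.29 in PMN, and the MHC class II list at -1.80 and -0.72. The x axes differ.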

How the data were processed

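The deposited values are intensities that the authors made with RMA, per the submitters' processing notes, which give no version. With a lowest value of 9.76 and a highest of 32095 they are linear, and were put on the log2 scale here, although a log2 table had been planned for. The median number of values shared by 2 arrays was 942.5 within Mo, 251 within PMN and 146 between subsets, and the subsets were treated as normalized apart. Of 35557 features, 21789 named 1 gene; for genes with several, the highest-mean feature was used, leaving 19938 genes. Symbols and coordinates are RefSeq GRCm38.p6.

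All 17 arrays entered 1 limma 3.58.1 model (R 4.3.3) with 6 group means, tested two-sided with Benjamini-Hochberg adjustment over the 19938 genes and calls at an adjusted p below 0.05. The pipeline was tested on simulated data. The number of arrays, 2 to 4 a group, limits the precision. The members and lists were chosen with earlier results of these data known, and the list counts carry no set test. All members are named, and from each list up to 3 genes each way by size of change. Levels of Mo and PMN were not tested against each other.

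Deviations of same-numbered arrays correlated at 0.63, 0.28 and 0.47 between Mo 3-week and 6-week arrays. Those of 3-week replicate 2 and 6-week replicate 3 correlated at 0.32, so the pairing is not established. The replicate block read those numbers as pairs and changed no call of the 10 genes there.

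Alternatives were quantile normalization, median centring, a pseudocount of 50, a floor at log2 6, dim genes left out, subsets fitted alone, array weights, a trended robust prior, feature means, the replicate block and each array left out. Cyclic loess and the list counts without 3 arrays that stood apart were added after seeing the data.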

Additional observations from a re-analysis of the deposited data

Results flagged for a closer look

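Ctss stood apart in 1 PMN naive array. Replicate 2 had a log2 level of 9.97, where the other 3 naive arrays lay between 9.03 and 9.15, a gap of 0.868 of the range of the group against a critical value of 0.829. Ctss was the only one of the 10 genes to stand out in this way among these 4 arrays, the only group large enough to be tested, and chance flags about 1 in 20 such cases. The same array had the highest macrophage marker sum of its group (7756), and the part of that in the Ctss level was not tested.

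For 5 genes the change from naive to 6 weeks differed between the subsets by the limma interaction test. Mo minus PMN, the difference was 0.72 for Ctsd and 1.46 for Ctsl, which moved higher in Mo, and -1.24 for Ctsh, -0.67 for Lamp1 and -0.78 for Lamp2, which moved higher in PMN. Those of Ctsl, Ctsh and Lamp2 passed in all 22 alternatives, that of Ctsd in 20 and that of Lamp1 in 18.

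From 3 to 6 weeks 11.9% of all genes were called higher in Mo and 17.3% lower. Among equally bright genes these shares were 2.38% and 64.1%, with a median difference of -0.76. Over this interval the difference was -0.98 for Ctsb, 0.93 for Ctsl, -1.40 for Ctsh, -0.81 for Lamp1 and -1.40 for Lamp2. Those of Ctsh and Lamp2 passed in all 20 alternatives, that of Lamp1 in 19, that of Ctsl in 17 and that of Ctsb in 10. Without PMN 3-week replicate 2 only 2 of these 5 were called.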

How the results depend on the processing

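Over all alternatives no called change of the 10 genes reversed. Of 1640 values, 62 calls were lost and 31 gained, and 102 values changed sign, none past the test with either setting, the largest of them 0.33 in size on the deposited scale. In Mo at 3 weeks, 3 genes were called, but 0 with quantile normalization, cyclic loess, the floor or the subset alone, and 9 with array weights. In Mo at 6 weeks against naive, 3 became 5 with median centring and 5 with array weights, and against 3 weeks 2 became 1 with the subset alone and 4 with array weights. The subset difference at 3 weeks went from 0 to 4 with array weights, and that from naive to 6 weeks from 5 to 3 with median centring. With each array left out in turn, counts ran from 0 to 4 in Mo at 3 weeks, 0 to 3 for the difference at 3 weeks, 3 to 7 for that from naive to 6 weeks and 2 to 5 for that from 3 to 6 weeks. A comparison with 1 array left in a group assumes that it varies like the others. With the replicate number as a block, the difference at 3 weeks was called for 2 genes and Ctsb was lost in PMN at 6 weeks, leaving 4. In Mo, deviations of same-numbered arrays of different stages had a median correlation of 0.47, against -0.30 for other pairs. Of those same-numbered pairs, 7 of 9 lay above 0.1, as did 6 of the 18 other pairs, the highest at 0.52. The same-numbered exceptions were naive replicate 2 with 3-week and 6-week replicate 2, at -0.09 and -0.04. The main fit took no account of this. In PMN the numbers did not pair the arrays, with correlations of same-numbered arrays from -0.46 to 0.02. The cause of these moves was not tested.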
